A study of Mus musculus with 38 samples.

Results

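The genes described here are protein-coding genes of mouse embryonic stem cells that carried less LMNB1 after priming than before it, relative to the other genes of the same library. LMNB1 was mapped by CUT&RUN, which releases and sequences the DNA lying close to an antibody's target. Members were chosen by their LMNB1 values in the 6 WT libraries, each scaled to its median gene. A gene was kept when its mean over the libraries exceeded 1, all 3 primed values lay below all 3 naive values, and the naive mean was at least 1.4 times the primed mean. Olfactory receptor, vomeronasal receptor and Pramel genes were left out by symbol, which removed 137 genes. The rule found 1633 members among 78202 genes in the table, or 9.76% of the 16725 protein-coding genes that met every criterion except the change itself (eligible genes).

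Naive cells (mESC) were grown in medium with LIF, 3 µM CHIR99021 and 1 µM PD0325901. Primed, epiblast-like cells (EpiLC) were made from them by 48 h with 20 ng/mL FGF and 12 ng/mL activin A. LMNB1 and the IGG background, a secondary antibody with no nuclear target, were mapped in WT cells only. LAP2B, an inner nuclear membrane protein, was mapped in WT cells, in LBRKO cells without the lamin B receptor, in TKO cells without lamins A/C, B1 and B2, and in QKO cells without the lamins and the receptor. Each of these 12 groups had 3 libraries of 200000 cells. WT and TKO were separate lines, LBRKO came from WT, and QKO was a single clone made from TKO, so spreads are between libraries, not between clones. The study described WT cells with a subpopulation lacking Y and another that lacked Y and carried extra copies of chromosomes 6 and 8. It described TKO cells with trisomy 8, some of them also without Y.

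The nuclear lamina is a meshwork of lamins beneath the inner nuclear membrane. LMNB1 is one of its B-type subunits, and LAP2B and LBR are membrane proteins that bind lamins and chromatin. Chromatin touching the lamina is typically gene-poor, AT-rich and little transcribed, and regions can leave or join it as cells change state. Exit from naive pluripotency is the step by which cells of the early embryo lose the naive gene program and become competent to form the germ layers.

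The promoters of the 6 members from separate loci with the largest LMNB1 ratios are shown, chosen by ratio and not by promoter type. Each covers 250 bases before to 50 bases after the canonical start site, read 5′ to 3′ on the gene's strand from GRCm39, with every CG dinucleotide in capitals. They lie at chr12:104229113-104229412 (plus strand, Serpina3i), chr5:107977715-107978014 (plus, Ube2d2b), chrY:36690604-36690903 (minus, Gm20835), chr1:160733738-160734037 (plus, Rc3h1), chrX:41157025-41157324 (plus, Xiap) and chr6:148846894-148847193 (minus, Sinhcaf).
Serpina3i: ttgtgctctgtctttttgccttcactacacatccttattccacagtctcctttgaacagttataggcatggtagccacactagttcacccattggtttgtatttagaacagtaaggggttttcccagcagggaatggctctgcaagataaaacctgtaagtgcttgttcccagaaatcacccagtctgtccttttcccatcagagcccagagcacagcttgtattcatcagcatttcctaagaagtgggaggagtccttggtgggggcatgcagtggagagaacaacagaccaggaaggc
Ube2d2b: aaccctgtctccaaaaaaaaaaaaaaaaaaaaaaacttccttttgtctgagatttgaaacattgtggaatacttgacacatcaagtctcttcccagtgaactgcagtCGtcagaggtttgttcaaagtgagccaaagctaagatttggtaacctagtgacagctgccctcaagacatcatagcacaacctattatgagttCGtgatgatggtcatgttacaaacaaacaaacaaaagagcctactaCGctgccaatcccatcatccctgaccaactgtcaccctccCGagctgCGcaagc
Gm20835: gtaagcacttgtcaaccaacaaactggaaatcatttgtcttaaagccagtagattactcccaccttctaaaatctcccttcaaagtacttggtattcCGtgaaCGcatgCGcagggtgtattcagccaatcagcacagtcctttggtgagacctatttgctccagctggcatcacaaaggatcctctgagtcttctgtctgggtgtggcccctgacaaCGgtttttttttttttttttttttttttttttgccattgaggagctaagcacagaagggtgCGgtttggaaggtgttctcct
Rc3h1: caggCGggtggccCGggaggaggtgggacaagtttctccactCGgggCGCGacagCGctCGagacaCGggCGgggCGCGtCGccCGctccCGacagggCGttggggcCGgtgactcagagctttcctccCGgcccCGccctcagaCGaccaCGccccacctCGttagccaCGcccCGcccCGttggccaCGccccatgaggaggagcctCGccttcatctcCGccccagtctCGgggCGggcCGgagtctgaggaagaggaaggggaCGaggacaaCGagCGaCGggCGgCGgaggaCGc
Xiap: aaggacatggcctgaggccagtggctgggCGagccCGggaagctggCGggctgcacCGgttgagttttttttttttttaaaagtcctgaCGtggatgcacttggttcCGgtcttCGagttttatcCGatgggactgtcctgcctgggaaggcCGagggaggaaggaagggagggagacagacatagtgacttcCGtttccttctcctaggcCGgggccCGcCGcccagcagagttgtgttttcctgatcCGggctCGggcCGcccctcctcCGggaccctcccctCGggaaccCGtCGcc
Sinhcaf: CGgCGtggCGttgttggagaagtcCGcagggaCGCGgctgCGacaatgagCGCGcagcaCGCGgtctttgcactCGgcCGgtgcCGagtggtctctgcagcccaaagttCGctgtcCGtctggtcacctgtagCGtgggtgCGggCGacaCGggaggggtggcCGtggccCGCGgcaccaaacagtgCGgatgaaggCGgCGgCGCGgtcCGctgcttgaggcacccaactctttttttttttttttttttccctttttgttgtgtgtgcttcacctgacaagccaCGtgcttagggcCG
Serpina3i had 0 CG dinucleotides, Ube2d2b and Gm20835 had 5 each, and Xiap, Sinhcaf and Rc3h1 had 20, 31 and 37. A promoter was called CpG-rich at a GC content of 55% or more and an observed over expected CG ratio of 0.65 or more, which Rc3h1, Xiap and Sinhcaf met. CpG-rich promoters were found at 626 members (38.3%) and at 36.1% of other eligible genes, and the sequence CG, which reads the same on both strands, occurred in 96.6% and 98.0% of these windows. These pooled shares were similar, but they differed with the level of LMNB1. When eligible genes were parted into 4 equal classes by LMNB1 per kb, 38.6% of members and 28.2% of eligible genes in the highest class had CpG-rich promoters, and 12.7% and 38.8% in the lowest.

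The LMNB1 values by which members were chosen are given first, as a description without a test. The median ratio of naive to primed LMNB1 was 1.53 and the highest was 2.63, with 39 members at 2 or more and 674 under 1.5. All levels below are multiples of the library's median gene, in the order of replicates 1, 2 and 3, and a gene's value is a sum over its 1 kb bins, so it grows with length. Just inside the ratio of 1.4 lay Cetn1, with naive values of 1.5, 1.06 and 1.04 and primed values of 0.87, 0.854 and 0.844, and Prss23, with 10.8, 10.2 and 7.96 and 5.92, 7.46 and 7.31. Just outside lay Mcph1 (103, 89.1 and 94.9, then 68.1, 70.4 and 66.6) and Necap1 (7.74, 6.88 and 6.84, then 5.18, 5.5 and 4.64). The ratios of these genes were nearly equal.

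Membership depended strongly on the scale. Dividing by the library's mean in place of its median left 384 members, all of them among the 1633, and the deposited spike-in scale left 223, of which 222 were among them. On both of these scales the primed mean of every member was still the lower, but the libraries of the stages were free of overlap at only 1491 and 498 members respectively, and the median ratio was 1.35 and 1.24. The lower primed means follow largely from the ratio of 1.4 that the rule required, and are a description only. What the 1633 genes share is therefore a loss of LMNB1 relative to the median gene. On the spike-in scale the difference was smaller, and only 222 of them met the rule there.

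Serpina3i (ENSMUSG00000079014, chromosome 12, 104229363 to 104238677, GRCm39), of the clade A serine protease inhibitors, had the largest ratio, 2.63. Its LMNB1 was 4.47, 3.76 and 4.73 in naive cells and 1.53, 1.76 and 1.63 in EpiLCs. Ube2d2b (ENSMUSG00000063447, chromosome 5, 107977965 to 107979642), a ubiquitin-conjugating enzyme gene, had 2.67, 2.22 and 2.36 and then 1.05, 1.13 and 0.9. Both are short genes, whereas the following ones are longer and act in many cell types. Rc3h1 (ENSMUSG00000040423, chromosome 1, 160733982 to 160802548), which encodes the mRNA-repressing protein Roquin-1, had 44.2, 32.9 and 36.9 and then 16.2, 18.2 and 14.8. Xiap (ENSMUSG00000025860, chromosome X, 41148481 to 41198541), an inhibitor of caspases, had 14.7, 11.6 and 11.9 and then 4.92, 6.29 and 5.62. Sinhcaf (ENSMUSG00000039985, chromosome 6, 148822532 to 148847996), a subunit of the SIN3 histone deacetylase complex, had 15.1, 14.2 and 16.4 and then 7.01, 6.55 and 6.61. Since these sums grow with gene length, they are compared between stages and not between genes.

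Tlk2 (ENSMUSG00000020694, chromosome 11, 105047045 to 105174785), a kinase that acts on histone chaperones, had LMNB1 values of 69.8, 53.9 and 59.2 in naive cells and 27.3, 28.8 and 24.9 in EpiLCs. Serpinb9b (ENSMUSG00000021403, chromosome 13, 33211399 to 33225867), an intracellular serpin, had 8.37, 6.6 and 6.57 and then 2.84, 3.69 and 3.52. The remaining 5 of the 12 largest were Gm20835 on Y (ratio 2.32), the oogenesin gene Oog3 (2.25), Speer1j (2.22), Scp2d1 (2.19) and the epidermal gene Rptn (2.18). Serpina3i, Oog3, Speer1j and Gm20835 belong to families of similar genes among which reads may be shared, so their values are uncertain.

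**Figure D1:**
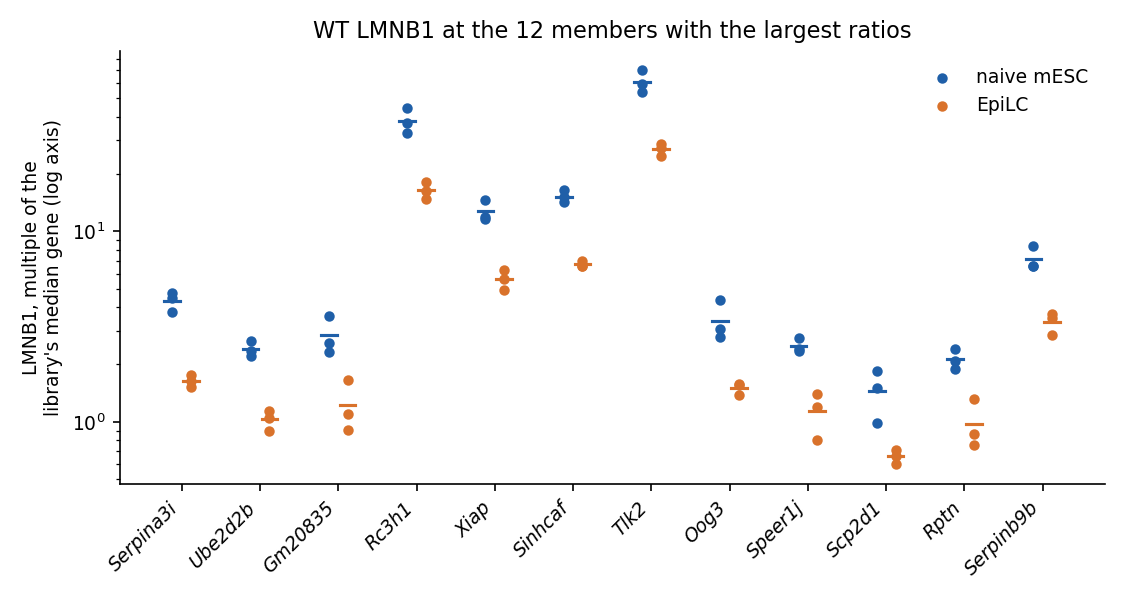
LMNB1 in WT cells at the 12 members with the largest ratios, 1 per locus; points are libraries (3 per stage), short lines are means, and the log axis gives multiples of the library's median gene. Naive values lie above primed values at each gene because the rule required it, and Serpina3i falls from between 3.76 and 4.73 to between 1.53 and 1.76.

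Divided by length, the members were rich in LMNB1 before priming and closer to the typical gene after it. Per 1 kb bin, and with the library's median set to 1, the median member had 2.06, 1.76 and 1.86 in the naive LMNB1 libraries and 1.15, 1.29 and 1.17 in the EpiLC libraries, against a mean of 0.916 ± 0.0333 and 0.947 ± 0.0154 (SD, n = 3) for the median eligible gene. LAP2B, which the rule did not use, gave 1.58, 1.76 and 1.54 in naive WT cells and 1.09, 1.01 and 0.988 in WT EpiLCs. IGG gave 1.07, 0.978 and 0.994 and then 0.902, 0.911 and 0.931. The stages did not overlap in LAP2B or in IGG, and the background moved by far less than LAP2B. Their separation in LMNB1 was set by the rule. The study set LAP2B aside as a marker of lamina contact in EpiLCs. In WT EpiLCs it found LAP2B signal both inside and outside the regions bound by LMNB1. It also described LMNB1 contacts as largely constant between the WT stages. The LAP2B changes given here are therefore changes in LAP2B signal and not a measure of lamina contact. In such bulk samples, a lower level in every cell and the same level in fewer cells cannot be told apart.

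In WT cells LAP2B fell at most members. limma called 1367 of the 1633 lower in EpiLCs and 0 higher at an adjusted p under 0.05, where 17.1% of all 70381 genes tested were called lower and 15.1% higher (24.6% and 29.7% of eligible genes). At an unadjusted p under 0.05, 1455 were lower and 0 higher, and edgeR on reads recovered from the values called 1387 and 0. The median log2 change over members was -0.65, with quartiles of -0.79 and -0.49, against -0.06 over all genes tested and 0.04 over eligible genes, and 1613 members lay below 0. The calls numbered 264 lower and 0 higher on the spike-in scale, where the median change of all genes was 0.09. Without the 57 members on Y they were 1341 and 0 on the relative scale.

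The largest fall was at Serpina3i, where LAP2B went from 5.78, 5.93 and 4.25 to 1.92, 1.31 and 1.45, a log2 change of -1.71 (SE 0.20, limma adjusted p 1.47e-08). Serpinc1 (ENSMUSG00000026715, chromosome 1, 160806146 to 160833433), the gene of the clotting inhibitor antithrombin, went from 13.3, 17.2 and 13.5 to 3.87, 5.83 and 4.8, a change of -1.59 (SE 0.13, limma adjusted p 1.07e-12). Cst3 (ENSMUSG00000027447, chromosome 2, 148713635 to 148717887), which encodes the protease inhibitor cystatin C, went from 7.06, 7.61 and 7.02 to 2.78, 2.32 and 2.2, a change of -1.54 (8.93e-10 by limma). In each of these genes every naive value exceeded every primed value. Xiap went from 10.5, 12.1 and 10.2 to 4.57, 5.24 and 2.96, a change of -1.37 (limma adjusted p 7.31e-10). Spaca6 (ENSMUSG00000080316, chromosome 17, 18047420 to 18063271), needed for sperm and egg fusion, went from 12, 11.4 and 12.3 to 4.52, 4.26 and 4.93, a change of -1.36 (limma adjusted p 1.3e-10). The other 3 of the 8 largest were short genes with low values, namely Gm5901 (-1.49, limma adjusted p 3.1e-06), 2310003L06Rik (-1.46, 4.43e-06) and the calcium-binding S100a4 (-1.36, 0.000236). The background was lower too at most of these 8 genes. Every EpiLC value of IGG lay below every naive value at Serpina3i, Serpinc1, Cst3, Spaca6, Gm5901 and 2310003L06Rik. At Serpinc1 IGG went from 7.5, 7.33 and 7.08 to 6.16, 6.14 and 5.95. At Cst3 it went from 2.17, 2.24 and 1.94 to 1.47, 1.26 and 1.4. At Xiap and S100a4 the stages overlapped in IGG.

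Among the members with the largest LMNB1 ratios, Rc3h1 had LAP2B values of 23.5, 32.5 and 28.5 and then 17, 14.1 and 11.4 (log2 change -0.99, limma adjusted p 7.83e-08), and Tlk2 had 43.1, 52.8 and 45.5 and then 22.9, 22.3 and 21.6 (-1.07, 2.49e-10). Sinhcaf had 11.1, 13.7 and 12.1 and then 7.1, 7.64 and 7.39 (-0.72, limma adjusted p 1.1e-05). At Ube2d2b the stages overlapped, with 2.17, 2.52 and 0.942 and then 1.12, 1.26 and 0.679, although limma called it lower (-0.75, adjusted p 0.0111). Each of the 12 was called lower in LAP2B.

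**Figure D2:**
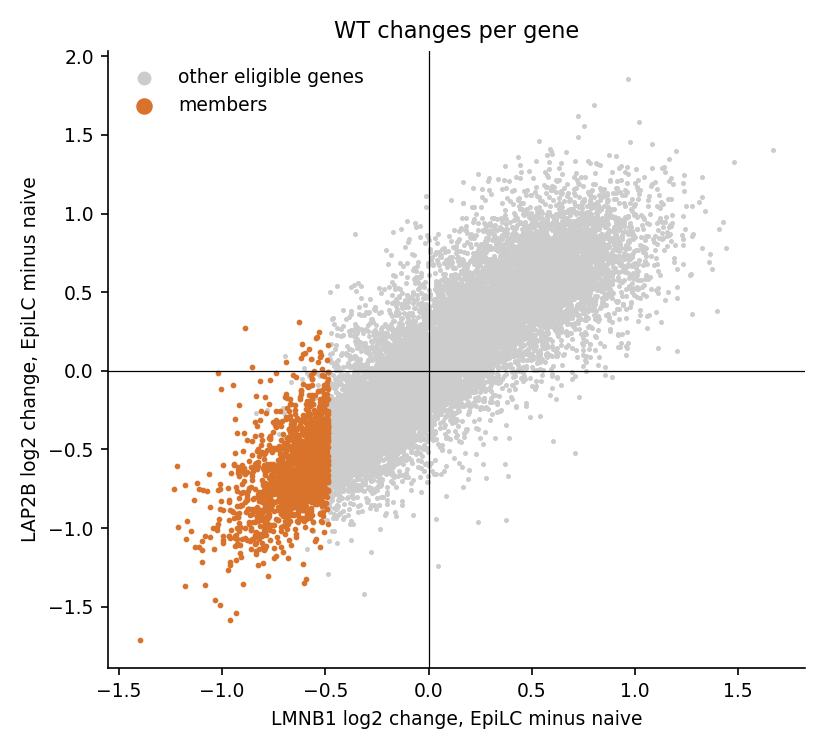
Log2 change from naive to primed WT cells in LMNB1 (horizontal) and LAP2B (vertical), 1 point per gene, for the 1633 members (orange) and the other eligible genes (grey). The straight right edge of the members is the rule's ratio, and 1613 of them lie below 0 on the LAP2B axis.

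Across genes, Pearson's r between the LMNB1 and LAP2B changes was 0.448 over the 1633 members, whose LMNB1 range the rule had cut, and 0.869 over the 16725 eligible genes. Neighbouring genes share bins and domains, so these are descriptions across genes that are not independent. The 266 members not called lower in LAP2B covered a median of 15 bins, against 44 for those called, and had a median ratio of 1.5 against 1.54. They included 20 at or above 0, of which Ctxn1 (0.31), Tmem139 (0.27), Usp11 (0.25) and the ribosome maturation gene Sbds (0.21) had the highest log2 changes. limma called none of the 20. The developmental factor genes Foxd2, with a log2 change in LAP2B of -0.01, and Gata6, with 0.08, were also close to 0. Apart from Usp11 and Foxd2, these genes were chosen after their values were seen.

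The IGG background moved in the same direction at most members. limma called 82 members lower and 0 higher, where 0.418% of all genes were called lower and 0.0725% higher (0.735% and 0.143% of eligible genes). At an unadjusted p under 0.05, 519 were lower and 13 higher, and edgeR called 102 and 1. The median log2 change was -0.19, against -0.02 over all genes tested, and 1348 members lay below 0. The count fell to 2 without EpiLC replicate 1 or without EpiLC replicate 2, to 8 without naive replicate 1 and to 36 without naive replicate 3, and it was 0 on the spike-in scale by limma (218 at an unadjusted p under 0.05), where the median change of all genes was 0.92. Calls at single genes therefore rested on individual libraries, while the negative sign was shared widely on the relative scale.

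The largest IGG falls were at Sec61g (ENSMUSG00000078974, chromosome 11, 16450320 to 16458507), a subunit of the protein translocation channel, with 2.69, 2.24 and 2.28 in naive cells and 1.22, 0.767 and 1.5 in EpiLCs (log2 change -1.03, limma adjusted p 0.0317), and at Serpina3i, with 3.08, 1.9 and 2.68 and then 1.43, 0.977 and 1.31 (-0.98, 0.0331). Zfp1004, Tcp11x2 and Ugt2b34 followed with -0.81, -0.79 and -0.78 (limma adjusted p 0.0234, 0.0296 and 0.045). All 5 lost their call when 1 of several IGG libraries was left out. By contrast, Xiap had IGG values of 5.86, 5.17 and 5.35 and then 4.76, 5.98 and 4.68, and Sinhcaf had 7.17, 7.1 and 6.25 and then 6.76, 8.95 and 7.55. At these genes the stages overlapped in the background but not in LAP2B. Other members described above had lower background in EpiLCs without a call. IGG went from 16.2, 15.4 and 15.4 to 11.3, 15 and 14 at Rc3h1 (limma adjusted p 0.38), from 25.9, 24.9 and 23.8 to 17.5, 22.8 and 21.8 at Tlk2 (0.234) and from 3.44, 2.98 and 3.08 to 2.07, 2.35 and 2.2 at Serpinb9b (0.185). At these 3 genes every EpiLC library was below every naive library in the background.

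The difference between the changes in LAP2B and IGG was tested directly in 1 model over both antibodies. The LAP2B change was lower than the IGG change at 388 members and higher at 0 (limma), where 1.18% of all genes were called lower and 1.43% higher (3.2% and 3.75% of eligible genes). At an unadjusted p under 0.05, 997 were lower and 0 higher, and edgeR called 305 and 0. The median difference was -0.46 on the log2 scale, against -0.03 over all genes, and 1558 members lay below 0. The count was 180 with the library mean and 625 on the spike-in scale, and it ranged from 78 (without naive LAP2B replicate 2) to 527 when libraries were left out in turn. On the spike-in scale the median change of all genes was 0.09 in WT LAP2B and 0.92 in IGG. The 625 therefore include a shift of all genes and are not particular to the members. A matching test for LMNB1 was not made, because LMNB1 chose the members.

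**Figure D3:**
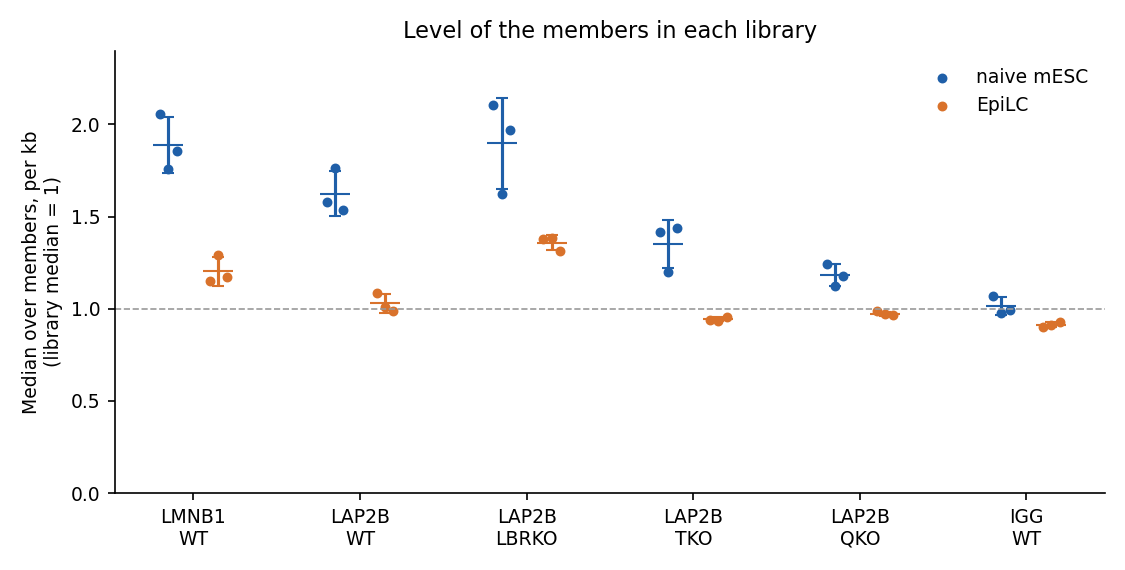
Median over the 1633 members of the value per 1 kb bin in each of 36 libraries, with the library's median gene set to 1 (dashed line); points are libraries, crossbars and whiskers the mean and SD of 3. The members lie at 1.54 to 1.76 in naive WT LAP2B and at 0.988 to 1.09 in WT EpiLCs, while IGG lies at 0.978 to 1.07 and then at 0.902 to 0.931.

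The members were mostly genes with much LMNB1 per kb. In the 4 classes of eligible genes, set by their mean over the 6 LMNB1 libraries, which the rule also used, members made up 26.5% of the highest class (1109 genes), 8.35% of the next (349), 1.55% of the second lowest (65) and 2.63% of the lowest (110). In the highest class the median log2 change in LAP2B was -0.70 for members and -0.47 for all eligible genes, and 993 members (89.5%) were called lower, where 64.7% of that class were. In the lowest class the corresponding medians were -0.52 and 0.50, with 54 members (49.1%) called lower, where 3.37% of that class were. The members' median was below 0 in every class, while that of all eligible genes was above 0 in the 2 lower classes. In LMNB1, the median log2 change of all eligible genes was 0.47 in the lowest class and -0.36 in the highest. A fall was thus typical of genes rich in LMNB1 and not particular to the members. Members were longer than other eligible genes, with a median of 34.6 kb against 27.0 kb, and lower in GC content, with 41.4% against 45.6%. Those with CpG-rich promoters had a median log2 change in LAP2B of -0.63 (539 of 626 called lower) and the rest -0.66 (828 of 1007).

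**Figure D4:**
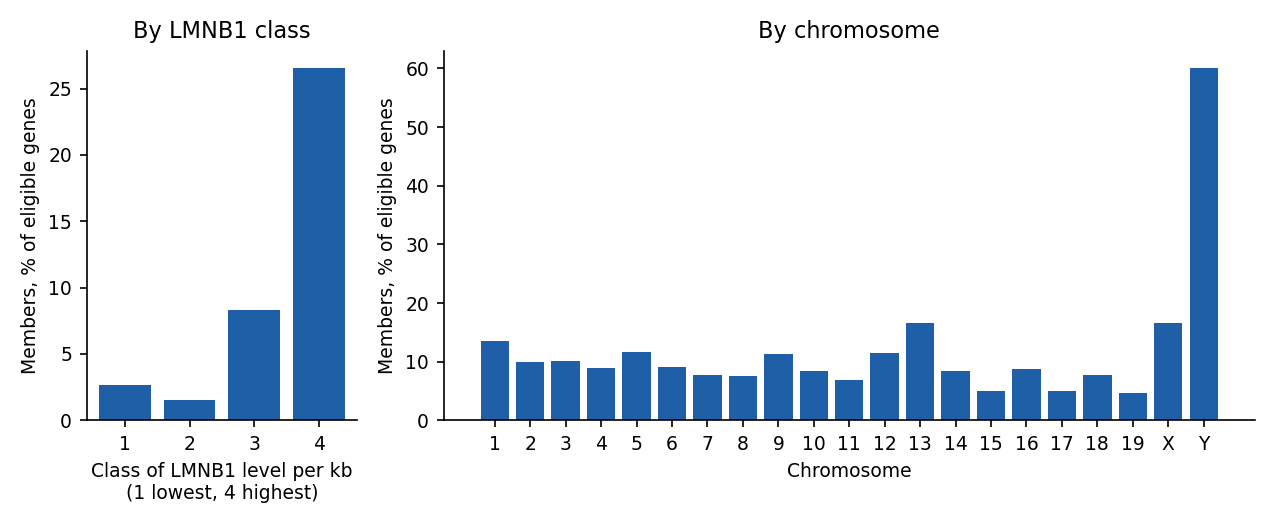
Members as a percentage of eligible genes, by class of LMNB1 per kb (left) and by chromosome (right). The highest LMNB1 class holds 26.5% members, and Y stands apart at 60% of its 95 eligible genes.

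By chromosome, members made up 16.6% of eligible genes on X (97), 16.5% on 13 (105) and 13.4% on 1 (144), and 4.58% on 19 (24), 4.92% on 17 (36) and 5.03% on 15 (31). On chromosomes 6 and 8, of which the study described extra copies in some cells, they were 9.08% and 7.56%. Y was exceptional with 57 of 95 eligible genes. Its genes are mostly present in many similar copies. In LAP2B 26 of its 57 members were called lower, a smaller share than the 83.7% of all members, where 24.6% of all eligible genes were called. The median IGG change of all eligible genes on Y was -0.25, against 0.03 over all eligible genes. The part of copy number or of the share of cells with a Y in these values was not tested.

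Many members lay near other members. Joined across gaps of up to 200 kb they formed 833 loci, of which 522 held a single member and 176 held 3 or more. These 176 contained 841 members (51.5%). The matching share for eligible genes was not counted, so this clustering is not read as particular to the members. A bin was shared with another member by 317 members, whose values are not independent. Eligible genes within 200 kb of a member that were not members themselves (2612) had a median LMNB1 change of -0.28 and 88.0% were lower in EpiLCs by mean, whereas the 12480 farther away had 0.19 and 33.7%. In LAP2B the medians were -0.34 and 0.23. Genes that failed the rule had smaller LMNB1 changes by construction, and because LAP2B and LMNB1 changes went together across eligible genes, the LAP2B medians are not independent of the rule either.

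The largest locus spanned chromosome 9, 122634575 to 123778445, with 18 members of 25 eligible genes. It ran from Tcaim and the zinc finger genes Zkscan7 and Zfp105 over the mitotic kinesin gene Kif15 and Lars2, a mitochondrial leucyl-tRNA synthetase gene, to the amino acid transporters Slc6a20a and Slc6a20b and the chemokine receptors Ccr9 and Cxcr6. Mean LMNB1 per kb over these members was 2.27, 1.98 and 1.97 in naive cells and 1.14, 1.34 and 1.27 in EpiLCs. LAP2B went from 1.58, 1.98 and 1.68 to 1.13, 1.07 and 1.07, and IGG from 1.03, 0.940 and 1.00 to 1.12, 1.07 and 1.06. The stages were apart in LMNB1 by the rule and also in LAP2B, the background was not lower in EpiLCs, and 15 of the 18 were called lower in LAP2B, against 83.7% of all members and 24.6% of eligible genes.

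On chromosome 2, a locus of 15 members (149671131 to 150881302; 17 eligible genes) held the Krüppel-type zinc finger genes Zfp120, Zfp1004, Zfp937, Zfp1005, Zfp1001 and Zfp442 together with Gins1, a DNA replication gene. Its LMNB1 per kb went from 3.04, 2.55 and 2.62 to 1.45, 1.80 and 1.63, its LAP2B from 2.41, 2.83 and 2.24 to 1.46, 1.20 and 1.20, and its IGG from 1.41, 1.07 and 1.13 to 0.949, 0.884 and 0.895. Here the background was lower in every EpiLC library too, and all 15 were called lower in LAP2B. The locus of Rc3h1 and Serpinc1 on chromosome 1 (159871952 to 161079098) held 14 members of 16 eligible genes, 13 of them called lower, with LAP2B per kb of 1.65, 1.99 and 1.71 and then 1.04, 0.934 and 0.936. Its IGG went from 1.09, 0.985 and 1.03 to 0.888, 0.916 and 0.912, again without overlap.

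The remaining loci of 10 or more members were of both kinds, arrays of related genes and mixed neighbourhoods. The natural killer cell receptor region on chromosome 6 (129244288 to 130363837) held 12 members, among them Cd69, Clec12a, Clec12b and 6 Klra genes, out of 30 eligible genes, and all 12 were called lower in LAP2B. The 18 eligible genes there that were not members had a median LAP2B change of -0.57, against -0.69 for the members. Its IGG per kb went from 1.29, 0.936 and 1.05 to 0.802, 0.769 and 0.881, so the background was lower there without overlap. The cystatin cluster on chromosome 2 (148514521 to 148845171) held 11 of 12 eligible genes, all called lower, with a median IGG change of -0.28, and the Serpina1 and Serpina3 cluster on chromosome 12 (103913187 to 104361078) held 10 of 14, all called lower with a median LAP2B change of -0.78 and a median IGG change of -0.56. Mixed loci of 10 members each lay on chromosome 5, around Glmn, Gfi1, Evi5 and Ube2d2b (107550602 to 108135298) and around Pcgf3, Gak and Idua (108416762 to 108858366), and 9 of 10 were called lower in each, with median IGG changes of -0.04 and -0.08. Among the loci of 9 members was the Speer1 array, also on chromosome 5. Reads may be shared among the similar copies in the Klra, Serpina3 and Speer1 arrays. The counts called lower in all the loci named are read against the 83.7% of all members and 24.6% of eligible genes called lower.

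Genes of naive pluripotency are considered because priming ends that state. Of 26 eligible genes in a list of 29, 7 were members, and of 30 eligible genes in a list for the primed epiblast 0 were. In LAP2B, 7 of the 26 naive genes were called lower and 4 higher, and 1 and 9 of the 30 primed genes, where 24.6% of eligible genes were called lower and 29.7% higher. The differences from these shares were not tested. Both lists are short and CUT&RUN does not measure transcripts, so the counts describe LMNB1 and LAP2B over these genes only.

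Tet2 (ENSMUSG00000040943, chromosome 3, 133169436 to 133250900), whose product oxidises 5-methylcytosine, had LMNB1 values of 54.3, 45.8 and 45.9 and then 23.1, 30.3 and 27.7, and LAP2B values of 42.1, 51 and 40.1 and then 23.3, 19.6 and 20.2 (log2 change -1.07, limma adjusted p 7.31e-10). Its IGG fell from 25.3, 21.4 and 19.3 to 15.4, 15.5 and 15.6 (-0.49, limma adjusted p 0.0301). Lifr (ENSMUSG00000054263, chromosome 15, 7120095 to 7226970), the receptor for LIF, went from 30.3, 30.4 and 29.2 to 16.4, 16.6 and 18.3 in LAP2B (-0.81, limma adjusted p 7.97e-09) and from 25.9, 25 and 24.2 to 17.5, 18.5 and 19.7 in IGG. At both genes the background fell as well, by less than LAP2B. Nr5a2 (ENSMUSG00000026398, chromosome 1, 136770303 to 136888186), a nuclear receptor active in pluripotent cells, went from 40.7, 42.4 and 34.3 to 24.3, 23.7 and 24.3 (-0.69, limma adjusted p 1.54e-07). Jam2, a junctional adhesion gene, and Mras, a small GTPase gene, changed by -0.90 and -0.68 (limma adjusted p 1.21e-07 and 3.53e-06). In IGG, Nr5a2 had 29.1, 30.1 and 29.3 and then 24.3, 23.8 and 24.9, Jam2 14.1, 13.1 and 13.6 and then 8.25, 10.3 and 11.1, and Mras 20.2, 13.8 and 14.2 and then 11.5, 12.2 and 12.9. The stages did not overlap in the background at these 3 genes, none of which was called in IGG (limma adjusted p 0.172, 0.0633 and 0.15). Zfp57, which guards imprints, and Dppa3, an oocyte and germ cell factor, had -0.36 and -0.18 and were not called (limma adjusted p 0.101 and 0.51).

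In the mutants most of the 7 naive genes were called lower on priming too. limma called 5 of 7 lower in LBRKO, again without Zfp57 and Dppa3, and 7 of 7 in both TKO and QKO, where 48.6%, 56.1% and 27.7% of all members were called lower in the 3 lines, and 20.7%, 16.1% and 35.3% of eligible genes. Over the LBRKO, TKO and QKO lines, Tet2 changed by -0.86, -1.52 and -1.07, and Lifr by -0.68, -0.67 and -0.81. Zfp57 changed by -0.98 in TKO and -1.09 in QKO, and Dppa3 by -0.84 and -0.85, on the log2 scale relative to the median gene. On the spike-in scale limma called 3 of the 7 lower in each of WT and LBRKO, 2 among TKO cells and 1 among QKO cells, with medians of -0.52, -0.66, -0.34 and -0.41, so most of the calls but not the direction of the median depended on the scale. IGG was not mapped in the mutants.

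Of 29 eligible nuclear envelope genes, 2 were members. Tmpo (ENSMUSG00000019961, chromosome 10, 90983375 to 91017177), the gene of LAP2B itself, had LMNB1 values of 13.1, 12.1 and 12.3 and then 7.51, 8.35 and 7.58, LAP2B values of 9.9, 11.7 and 8.98 and then 6.92, 7.39 and 6.2 (log2 change -0.57, limma adjusted p 0.000195) and IGG values of 9.36, 8.3 and 7.18 and then 8.1, 8.33 and 8.19. Tor1aip1, a lamin-binding membrane protein gene, changed by -0.54 in LAP2B (limma adjusted p 0.00101) and by 0.38 in IGG. The IGG stages overlapped at Tmpo, and at Tor1aip1 every EpiLC value (6.68, 8.54 and 6.39) lay above every naive value (4.56, 5.92 and 6.06), though limma did not call the difference (adjusted p 0.224).

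Symbol families were counted with members read against the 9.76% of all eligible genes. Immune and lectin genes stood at 12.4% (41 of 330), developmental transcription factors at 9.89% (18 of 182), matrix and protease genes at 8.90% (13 of 146), G protein-coupled receptors at 8.67% (13 of 150), zinc fingers at 7.89% (34 of 431), transporters at 7.47% (37 of 495), metabolic and detoxification enzymes at 6.13% (13 of 212), ion channels at 5.22% (12 of 230), cadherins and synaptic adhesion genes at 3.36% (5 of 149) and axon guidance genes at 2.86% (2 of 70). These shares were not tested against one another. In LAP2B, 35 of the 41 immune members, 34 of 37 transporters, 29 of 34 zinc fingers and 14 of 18 developmental factors were called lower, and 0 in each were called higher. Over all members 83.7% were called lower, so these shares were close to that of any member.

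Examples by largest ratio carried LAP2B changes of -1.08 at the myeloid lectin Clec12b and -0.89 at the Toll-like receptor relative Cd180, -0.94 at the bicarbonate transporter Slc4a7 and -0.80 at Abca5, and -1.27 and -1.11 at Zfp1001 and Zfp1005. Among receptors, Adgra3 changed by -1.10 and the serotonin receptor gene Htr1b by -0.96. Among neuronal families, the sodium channel gene Scn3a changed by -0.89, Kcnip4 by -0.85, the adhesion genes Lrrn4 and Slitrk5 by -0.83 and -0.94, and the guidance genes Plxna2 and Slit2 by -0.95 and -0.74. The pituitary factor gene Pou1f1 changed by -0.76, the collagen gene Col10a1 and the membrane protease gene Adam26b by -0.63 and -0.64, and the glutathione transferase gene Gsta3 by -1.13, all in log2 units and all called by limma. IGG was also called lower at Scn3a, Kcnip4, Plxna2, Slit2 and Adgra3. Exceptions were Foxd2 and the glutathione transferase gene Gstm1 (0.02), which were not called.

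In each mutant, limma called fewer members lower on priming than in WT. In LBRKO it called 793 lower and 16 higher, where 10% of all genes were called lower and 7.87% higher (20.7% and 10.8% of eligible genes), with a median of -0.38 over members and 0.02 over all genes. In TKO it called 916 lower and 41 higher (10.1% and 14% of all genes, 16.1% and 22.9% of eligible genes), with medians of -0.43 and 0.07. In QKO it called 452 lower and 294 higher (19.9% and 21.7% of all genes, 35.3% and 24.7% of eligible genes), with medians of -0.04 and 0.11, and edgeR called 673 and 145. In QKO the share of members called lower, 27.7%, thus lay between those of all genes and of eligible genes. On the spike-in scale LBRKO had 140 members lower and 0 higher, TKO had 88 and 157, and QKO had 18 and 594, so the direction in TKO and QKO depended on the scale. The median over all genes on the spike-in scale was 0.04, 0.53 and 0.51 in these lines, so all genes shifted upward in TKO and QKO. Members were chosen by their LMNB1 loss in WT, where the LMNB1 and LAP2B changes went together across eligible genes. A larger LAP2B fall in WT than in the mutants is therefore partly set by the rule.

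Of the 1367 members called lower in WT, 733 were called lower in LBRKO (53.6% of the WT list and 92.4% of the LBRKO list), 848 in TKO (62.0% and 92.6%) and 409 in QKO (29.9% and 90.5%). All 4 genotypes called 298 members lower (18.2%), and 157 members were called lower in none. The matching shares of all genes and of eligible genes were not counted, so neither number is read as particular to the members. The shares of the mutant lists are to be read against the 83.7% of all members that were called lower in WT, and those of the WT list against the 48.6%, 56.1% and 27.7% called lower in the respective mutants. The libraries of these comparisons are separate. Per kb, the median member had 2.10, 1.62 and 1.97 in naive LBRKO cells and 1.38, 1.38 and 1.31 in LBRKO EpiLCs, 1.42, 1.20 and 1.44 and then 0.942, 0.934 and 0.955 in TKO, and 1.24, 1.12 and 1.18 and then 0.986, 0.970 and 0.965 in QKO. The stages were apart in every line on this per-kb scale, which divides by the library's median value per bin. On the scale used for the tests, which divides by the median gene, the QKO median change over members was only -0.04. Per kb, the median eligible gene went from 1.19 ± 0.0336 to 1.08 ± 0.00471 in LBRKO, from 1.1 ± 0.0046 to 1.07 ± 0.00806 in TKO and from 1.43 ± 0.0928 to 1.14 ± 0.0155 in QKO (SD, n = 3). In QKO eligible genes as a whole thus shifted on the per-kb scale at least as much as the members.

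**Figure D5:**
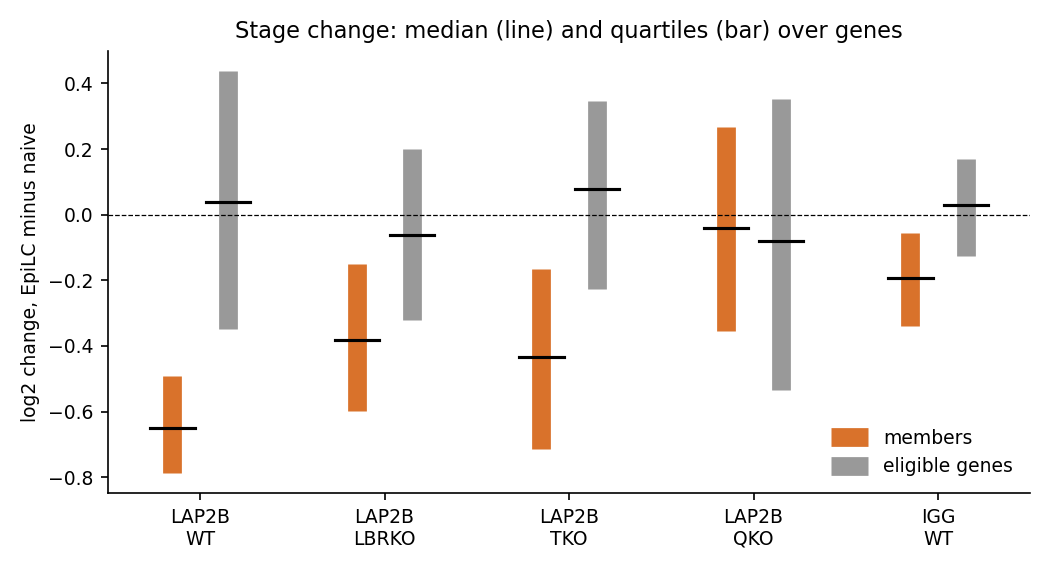
Log2 change from naive to primed cells in LAP2B by genotype and in WT IGG, over the 1633 members (orange) and the 16725 eligible genes (grey); black lines are medians and bars run from the lower to the upper quartile of genes. Members have medians of -0.65, -0.38, -0.43 and -0.04 in WT, LBRKO, TKO and QKO, and -0.19 in IGG.

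Whether the stage change differed from that in WT was tested as an interaction. The change was higher, that is less negative or more positive, at 369 members in LBRKO and lower at 34, where 10.2% and 9.55% of all genes and 13.3% and 22.7% of eligible genes were called. In TKO it was higher at 292 and lower at 27 (5.77% and 3.81% of all genes, 9.64% and 8.01% of eligible genes). In QKO it was higher at 978 and lower at 45 (24.8% and 21% of all genes, 29.2% and 37.1% of eligible genes). The median differences over members were 0.27, 0.21 and 0.60, against 0.04, 0.11 and 0.20 over all genes. With the library mean, LBRKO had 219 members higher and 103 lower, TKO had 113 and 161, so that its majority turned, and QKO had 779 and 81. On the spike-in scale the same 3 lines had 1 and 1, 46 and 0, and 900 and 1, with medians over all genes of -0.10, 0.41 and 0.45. The members were chosen in WT cells and LMNB1 was not mapped in the mutants. Because the WT changes in LMNB1 and LAP2B went together across eligible genes, the comparison with WT is not independent of the rule.

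Already in naive cells, LAP2B over the members differed between the lines. In LBRKO, limma called 403 lower and 658 higher than in WT (27.6% and 28.9% of all genes, 21.2% and 51.1% of eligible genes), with a median of 0.13. In TKO it called 855 lower and 123 higher (27.5% and 21.8% of all genes, 27.4% and 39.2% of eligible genes), with a median of -0.35, and with the library mean 469 and 421. In QKO it called 1136 lower and 149 higher (42.3% and 33.2% of all genes, 35.7% and 49.6% of eligible genes), with a median of -0.74, against -0.22 over all genes, and with the library mean 967 and 295. Without members on Y, on the scale of the median gene, limma called 357 lower and 658 higher in LBRKO. It called 816 and 123 in TKO and 1080 and 148 in QKO. On the spike-in scale, LBRKO had 168 members lower and 574 higher, TKO had 1284 and 1, and QKO had 1586 and 2. The median over all genes on that scale was 0.21, -0.64 and -1.23 in the same lines. These spike-in counts therefore include a shift shared by all genes and are not particular to the members. These comparisons use the same naive WT libraries as the interactions, so their values are not independent of one another.

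The largest naive rises in LBRKO were at Med13 (ENSMUSG00000034297, chromosome 11, 86157859 to 86248748), a Mediator subunit gene, with 13.2, 16.5 and 16 in WT and 72.1, 43.4 and 53.9 in LBRKO (log2 change 1.86, limma adjusted p 5.6e-18), at Sinhcaf, with 11.1, 13.7 and 12.1 and 47.4, 36.1 and 45.2 (1.79, 1.67e-17), and at its neighbour Etfbkmt, a methyltransferase gene (1.73, limma adjusted p 7.08e-17). Sinhcaf fell again on priming, to 20.3, 20.3 and 18.7. The largest falls were on X, at the related genes Gm4297 (-2.23, limma adjusted p 2.89e-11) and Gm5935 (-2.12, 1.97e-09) and at Nap1l3, a histone chaperone-like gene (-2.02, 5.97e-08). Sinhcaf and Etfbkmt lie at the distal end of chromosome 6, and IGG was not mapped in LBRKO.

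In TKO the largest naive falls were at the bitter taste receptor genes Tas2r114 (-1.68, limma adjusted p 7.7e-05) and Tas2r123 (-1.65, 8.24e-05) and at the lipid transporter gene Abca8a (ENSMUSG00000041828, chromosome 11, 109916460 to 109986869), with 30.1, 36.8 and 25 in WT and 9.67, 8.9 and 9.76 in TKO (-1.67, 5.52e-15). The largest rises were at Dusp6, a phosphatase of ERK (1.51, 1.59 and 1.19 against 4.61, 3.05 and 3.76, log2 change 1.34, limma adjusted p 3.69e-07), at the deubiquitinase gene Usp11 (1.23, 1.45e-06) and at Mgat2 (1.18, 9.01e-06), an enzyme gene of N-glycan assembly. The taste receptor genes are short and had few reads, with WT values of 0.972, 1.5 and 0.962 at Tas2r114 and 0.361, 1.54 and 0.808 at Tas2r123.

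In QKO the largest naive falls were at Slco1a1 (ENSMUSG00000041698, chromosome 6, 141853007 to 141892690), an organic anion transporter gene, with 18.8, 27.4 and 18.5 in WT and 2.22, 3.04 and 2.79 in QKO (-2.95, limma adjusted p 1.12e-24), at the interferon-inducible Ifi202b, with 22.6, 26.6 and 22.3 and 2.62, 3.45 and 3.25 (-2.90, 2.5e-24), and at Klra10 (-2.73, 6.68e-15). Ifitm1 rose from 1.57, 1.29 and 0.942 to 6.27, 5.47 and 6.04 (2.16, limma adjusted p 5.96e-14), followed by Usp11 (1.92, 2.85e-12) and the tetraspanin gene Cd63 (1.72, 3.17e-15). At Slco1a1 and Ifi202b every QKO library lay several-fold below every WT library. TKO values at these genes lay between, with 7.7, 6.15 and 7.01 at Slco1a1 and 10.1, 7.1 and 9.66 at Ifi202b.

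Across the series the recovered reads over the gene table were 12028659 to 45689196 per library, with 29522895 to 37189077 for LMNB1, and the median gene had 36 to 135 reads. Replicates of a group differed by more than counting error in all 36 pairs, with a chi-square per degree of freedom of 3.34 to 12.3. No pair was close enough to be 1 library deposited again.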

How the data were processed

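CUT&RUN was analysed in 36 libraries of 12 groups (WT LMNB1 and IGG, and LAP2B in 4 genotypes, at both stages), and 2 H3K9me3 samples were left out. As described in the study, the authors aligned reads to GRCm39 with Bowtie2 2.3.5.1, filtered them with SAMtools 1.10 and computed coverage signal in 1 kb bins as RPKM with deepTools, times a yeast spike-in factor. The deposited signal per gene is a sum over the bins the gene touches, a joining step worked out from the values because the methods do not give it. All values were whole multiples of 1 step per library (within 0.0311 of a step), so reads were recovered for edgeR 4.0.16.

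Libraries were scaled to their median gene. Coordinates were found in GENCODE M39 for 78131 of 78202 genes (99.9%). The study names an earlier GENCODE release. Whether gene bounds, and so values per kb, differ between the releases was not tested. limma 3.58.1 in R 4.3.3 (lmFit, contrasts, eBayes with trend) was run on log2(value + 0.1) over 70381 genes, after the lowest 10% by mean were dropped, with Benjamini-Hochberg adjustment over all of them and a two-sided threshold of 0.05. A pseudocount understates the change of low genes. LAP2B libraries entered 1 model of 8 group means, IGG libraries a model of their own, and the difference between antibodies a joint model. LMNB1, which chose the members, was not tested. The study speaks of repeats in independent experiments in general, but no source used here says which of these libraries came from separate cultures, so p-values measure the spread between libraries, which may be technical. Members, lists and tests were chosen with earlier results of these data known. Named were the 12 largest LMNB1 ratios from separate loci, the 8 largest called changes in LAP2B and 5 in IGG per direction, 3 per direction for each mutant comparison, the genes nearest the threshold, the largest loci, the listed genes and 2 examples per symbol family. Scripts were tested on simulated data. Alternatives were the library mean, the spike-in scale, a pseudocount of 1, no filter on low values, edgeR, a fit on the compared groups alone, a replicate block and each library left out.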

Additional observations from a re-analysis of the deposited data

Results flagged for a closer look

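On the scale of the median gene, the stage change in LAP2B differed between WT and each mutant at part of the members by the interaction test. limma called 403 members in LBRKO, 319 in TKO and 1023 in QKO, or 24.7%, 19.5% and 62.6% of members. The change was higher in the mutant at 22.6%, 17.9% and 59.9% of members, where 13.3%, 9.64% and 29.2% of eligible genes were called higher and 22.7%, 8.01% and 37.1% lower. With the library mean the TKO majority turned, with 161 members lower and 113 higher. The counts were 250 in LBRKO without naive WT replicate 2 and 211 in TKO without TKO EpiLC replicate 3. Members were chosen by their LMNB1 loss in WT cells, so these comparisons with WT are not independent of the rule.

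In LBRKO the difference was 1.76 log2 units at Tas2r114, 1.54 at the phosphodiesterase gene Pde3b and 1.44 at Sprr2d. It was -1.47 at Gstm1, -1.32 at the zinc exporter gene Slc30a1 and -1.05 at Mgat2 (limma adjusted p 0.00839, 3.29e-08, 0.0151, 2.71e-05, 0.00233 and 0.0107 in this order). At Pde3b, LAP2B fell from 53.9, 70.5 and 52.6 to 37.7, 31.2 and 27.7 in WT and went from 51.1, 33.7 and 40.6 to 67.4, 67.4 and 62.1 in LBRKO, without overlap in either line and in opposite directions. The calls at Tas2r114, Sprr2d, Slc30a1 and Mgat2 were lost on the spike-in scale, with 1.72, 1.33, -1.48 and -1.20. Tas2r114 was also lost without naive LBRKO replicate 2 (1.33) or WT EpiLC replicate 3 (1.24), Mgat2 without naive WT replicate 2 (-0.83) and Sprr2d with no filter on low values (1.44).

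In TKO the difference was 1.44 at the connexin gene Gjd4, 1.43 at 1110059G10Rik and 1.36 at Plekha1, and -1.77 at Ripply1, -1.40 at Klhl34 and -1.35 at Dusp6 (limma adjusted p 0.0393, 0.0005, 1.79e-06, 0.000715, 0.00979 and 0.00175). At Plekha1, LAP2B went from 12.5, 14.3 and 13.3 to 8.4, 10.1 and 8.95 in WT and from 5.22, 8.28 and 5.42 to 10.5, 10.7 and 11.6 in TKO. The Gjd4 call was lost under 12 alternatives, with differences of 0.76 to 1.56, and the Klhl34 call under 4, with -1.40 to -0.996. The calls at Ripply1 and Dusp6 were lost on the spike-in scale, with -1.47 and -1.001.

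In QKO the difference was 2.02 at the cell cycle gene Rprm, 2.01 at the G protein regulator gene Rgs2 and 1.90 at Gm5901, and -1.79 at Ifitm1, -1.16 at Usp11 and -1.15 at Cd63 (limma adjusted p 0.00014, 2.87e-07, 5.41e-06, 9.76e-07, 0.000737 and 1.01e-05). At Rgs2, LAP2B fell from 3.35, 3.48 and 2.9 to 1.38, 1.13 and 1.46 in WT and went from 1.23, 0.552 and 0.941 to 1.94, 1.33 and 1.47 in QKO. The calls at Usp11 and Cd63 were lost on the spike-in scale, with -0.80 and -0.78.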

How the results depend on the processing

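On the spike-in scale the members called were 264 for the WT LAP2B stage change, 140 for LBRKO, 245 for TKO, 0 for IGG, 625 for LAP2B minus IGG, and 2 and 46 for the interactions in LBRKO and TKO. The 625 include the upward shift of all genes in IGG on that scale. With the library mean, LAP2B minus IGG gave 180, and the median over all genes of the WT stage change moved from -0.06 to 0.09. With no filter on low values limma gave 0 for IGG (486 in either direction at an unadjusted p under 0.05) and 204 for LAP2B minus IGG. edgeR on recovered reads, a separate alternative, gave 103 for IGG. The number of members was 384 with the library mean, 223 on the spike-in scale, 2512 at a ratio of 1.3 and 959 at 1.5. Leaving out each library in turn gave 1155 (without naive replicate 1) to 2412 (without naive replicate 2) members, and 2378 without EpiLC replicate 2. The cause of these shifts was not tested.

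The members called without each library in turn were 1183 to 1356 for the WT stage change, 587 to 920 for LBRKO, 794 to 1004 for TKO, 579 to 783 for QKO, 2 to 85 for IGG and 78 to 527 for LAP2B minus IGG. In naive cells they were 947 to 1061 for LBRKO, 823 to 966 for TKO and 1226 to 1278 for QKO against WT, and for the interactions 250 to 509, 211 to 341 and 895 to 1063. LAP2B minus IGG gave 219 and 135 without EpiLC LAP2B replicates 2 and 3, 183 and 180 without EpiLC IGG replicates 2 and 3, and 213 and 204 without naive IGG replicates 2 and 3.

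In no comparison did every same-numbered pair correlate above 0.1 (r of -0.07, -0.08 and 0.07 between the WT LAP2B stages, and 0.05, 0.18 and 0.04 between naive QKO and WT), so the numbers were not taken as pairs, and a replicate block gave 1364 for the WT stage change, 85 for IGG and 375 for LAP2B minus IGG. Of 49 calls at named members, 31 held under every alternative. IGG at Zfp1004, Tcp11x2 and Ugt2b34 turned to 0.19, 0.21 and 0.22 on the spike-in scale, where Usp11 and Mgat2 in naive TKO and Cd63 in naive QKO were no longer called. Short members with few reads limit what can be called.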
